A study of Homo sapiens with 10 samples.

Results

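The genes described here are 10 genes read as a report of YAP and TEAD activity: the target genes CYR61, CTGF, ANKRD1, AMOTL2 and AJUBA, the kinase gene LATS2, the coactivator genes YAP1 and WWTR1, and the DNA-binding factor genes TEAD1 and TEAD4. They were taken by symbol from the 33551 rows of the deposited count table, CYR61 and CTGF being the older symbols of CCN1 and CCN2, and all 10 were among the 17978 genes tested. The libraries came from A549, an established human lung adenocarcinoma line. There were 5 A549 lines: WT, a line labelled ABCA3 knockout (KO), and lines with the ABCA3 variants L101P, E292V or E690K. ABCA3 is the lipid transporter of the surfactant-storing lamellar bodies of alveolar type 2 cells, and the series title sets type 1 against type 2 variants. Each line gave 1 untreated library and 1 library after overnight transduction with LV-ABCA3:GFP, a VSVG-pseudotyped lentivirus that delivers an ABCA3:GFP fusion, used at an MOI of 20. No empty or unrelated vector was among the 10 libraries, so the cargo and the transduction itself cannot be told apart. All cells grew in serum-containing medium and were lifted with a protease before RNA extraction. Each genotype is 1 line and each line and vector state is 1 library, so a single level carries counting error only and a difference between lines cannot be told apart from a difference between clones.

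YAP (YAP1) and its paralogue TAZ (WWTR1) have no DNA-binding domain of their own and act through TEAD factors. LATS kinases phosphorylate YAP and TAZ and hold them in the cytoplasm when cells are crowded, rounded or on a soft support, and spreading, stretch and low density let them enter the nucleus. CYR61, CTGF and ANKRD1 are widely used as a readout of that activity, while AMOTL2, AJUBA and LATS2 are target genes whose products act back on the pathway. Activity is set largely by phosphorylation and location, which RNA counts do not measure, and cell density at harvest is not given in the sources used here.

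Total counts ranged from 59430095 to 96811421 per library. In the pair labelled KO the targeted gene went against the labels: ABCA3 was at 600.5 CPM (the count scaled to the library's total) in the library labelled untreated and 25.8 CPM in the library labelled transduced, and EGFP at 37.9 and 0.049 CPM. Untreated first, ABCA3 was at 361.9 and 610.5 CPM in WT and at 1155.7 and 895.8 CPM in L101P, so L101P also fell. ABCA3 was at 991.6 and 1034.6 CPM in E292V and at 889.7 and 967.7 CPM in E690K. EGFP was also counted in the untreated libraries of the other 4 lines, at 1.01 to 70.9 CPM. In E690K EGFP was at 16.3 CPM untreated and 18.0 CPM transduced. TDTOMATO was at 0 CPM in both libraries labelled KO and at 2.90 to 12.7 CPM in the libraries of the other 4 lines. The part of this difference in the KO results was not tested. Directions drawn from the pair labelled KO rest on its labels, and each result was also computed with these labels exchanged. The 7 epithelial markers examined were at 1 CPM or more in all 10 libraries, while the 6 alveolar type 2 markers summed to 0.82 to 1.97 CPM, with NKX2-1, SFTPC, SFTPB and SLC34A2 at 0 counts in at least 1 library.

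TEAD factors recognise the core GGAATG, which reads CATTCC on the opposite strand. RefSeq promoter windows, 250 bases before to 50 after an annotated start in GRCh38.p14, matched 7 of the 10 genes by symbol, not CYR61, TEAD1 or TEAD4. These 7 genes had 1 or 2 windows each, 10 windows in all. The core stood on either strand in 1 window each of 6 of the 7 genes. Counted by window, it stood in 14.0% of the 35116 promoter windows searched. CTGF had 3 copies, 169, 104 and 95 bases before its start, and 0.128% of windows held 3 or more. ANKRD1 had 2, 220 and 128 bases before its start, and 1.37% of windows held 2 or more. YAP1 had 1 copy 162 bases before its start, AMOTL2 and AJUBA 1 copy each in the second of their windows, 69 and 59 bases before the start, LATS2 1 copy beginning 10 bases after it, and WWTR1 none in its windows. The sequences of CTGF and ANKRD1 are shown because these genes had the lowest adjusted p among the 10 in the test of the lines. Both lie on the minus strand and are given 5′ to 3′ on that strand, up to the outermost annotated start, with the core in capitals. The CTGF stretch is chr6:131951374-131951622 and the ANKRD1 stretch is chr10:90921277-90921337. The ANKRD1 stretch holds 1 of its 2 copies, because GENCODE release 29 places the start of the gene further upstream, at 90921276, than RefSeq does. A match to 6 letters is a description of the sequence and shows no binding.
CTGF: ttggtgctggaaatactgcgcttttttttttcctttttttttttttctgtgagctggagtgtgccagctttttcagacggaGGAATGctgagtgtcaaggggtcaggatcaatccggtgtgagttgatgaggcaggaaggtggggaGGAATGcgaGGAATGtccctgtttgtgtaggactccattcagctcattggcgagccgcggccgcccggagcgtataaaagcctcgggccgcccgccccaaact
ANKRD1: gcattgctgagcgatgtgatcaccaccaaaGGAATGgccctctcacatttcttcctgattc

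The 10 genes fell into 5 whose level moved among the libraries and 5 that stayed within a narrow range. The highest level was 11.2 times the lowest for ANKRD1, 2.44 times for CYR61, 2.26 times for CTGF, 1.73 times for AJUBA and 1.67 times for AMOTL2. The corresponding ratios were 1.38 for WWTR1, 1.23 for TEAD1 and LATS2, 1.22 for TEAD4 and 1.18 for YAP1. In the E292V transduced library 6 genes had their highest level (CYR61, CTGF, ANKRD1, AJUBA, WWTR1, YAP1), and in the L101P transduced library CYR61, AMOTL2 and AJUBA had their lowest. Scaled to exon length, the median level was highest for TEAD4 (25.9 RPKM, the CPM divided by exon length in kilobases) and TEAD1 (20.7 RPKM). It was 19.3 RPKM for CYR61, 18.3 for AJUBA, 17.2 for AMOTL2, 16.8 for WWTR1, 16.5 for YAP1 and 12.9 for CTGF. LATS2 (5.94 RPKM) and ANKRD1 (2.21 RPKM) were the lowest of the 10.

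**Figure D1:**
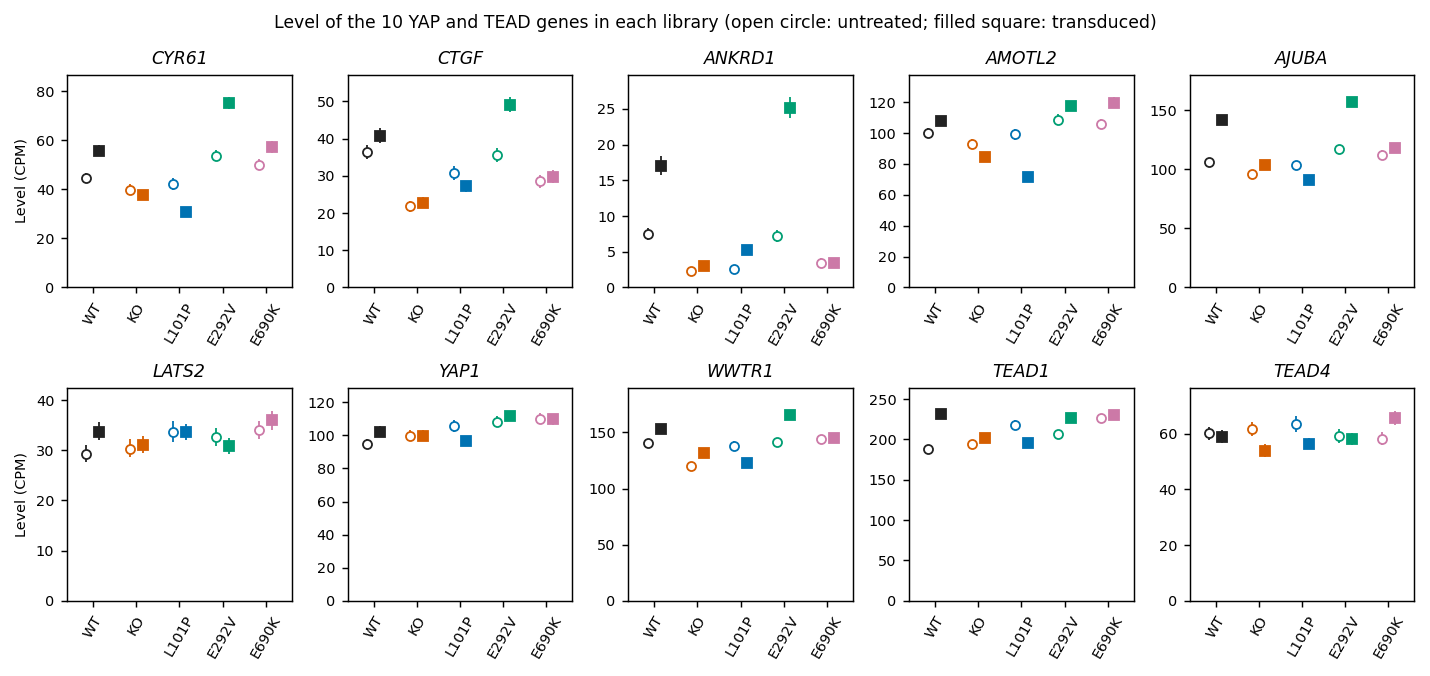
Level of each of the 10 genes (vertical axis, CPM, from 0) in the 5 lines (horizontal axis). Open circles are untreated and filled squares transduced libraries, and bars are 95% Wilson intervals, which cover counting error only. ANKRD1 reached 25.2 CPM in the E292V transduced library, against 2.25 CPM in the library labelled KO untreated, while YAP1 stayed between 94.9 and 112 CPM.

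ANKRD1 encodes a nuclear and sarcomeric ankyrin-repeat protein induced by mechanical load, and lies on chromosome 10 from 90912096 to 90921276 (GRCh38, minus strand). Its level was 7.47 CPM in untreated and 17.0 CPM in transduced WT cells, and 7.18 and 25.2 CPM in the E292V libraries. It was 2.25 and 3.02 CPM in the libraries labelled KO untreated and KO transduced, 2.52 and 5.27 CPM in the L101P pair, and 3.49 and 3.46 CPM in the E690K pair. The E292V and WT ranges overlapped and lay above those of the other 3 lines, among which the L101P range overlapped both the KO and the E690K range, and KO lay below E690K. ANKRD1 was also the least counted of the 10 genes, with 150 to 2386 counts, and the widest 95% interval of a single level was 22.8% of the level to either side.

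CTGF and CYR61 encode secreted matricellular proteins of the CCN family that bind integrins. CTGF lies on chromosome 6 from 131948176 to 131951373 (minus strand). CTGF was at 36.3 CPM untreated and 40.8 CPM transduced in WT, and at 35.6 and 49.1 CPM in E292V. It was at 28.5 and 29.8 CPM in E690K, 30.7 and 27.2 CPM in L101P, and 21.8 and 22.8 CPM in the libraries labelled KO. CTGF thus had the same lines at the top as ANKRD1, E292V and WT with overlapping ranges, then E690K and L101P, which overlapped each other, and both KO libraries below all others. CYR61 lies on chromosome 1 from 85580761 to 85583962 (plus strand). Its levels were 44.8 and 55.9 CPM in WT, 53.7 and 75.1 CPM in E292V, 50.0 and 57.3 CPM in E690K, 39.9 and 37.6 CPM in the KO pair, and 42.2 and 30.8 CPM in L101P, untreated first. For CYR61, E690K overlapped E292V and WT, and the KO and L101P ranges overlapped below them. The E690K range overlapped that of WT for CYR61 and lay below it for CTGF and ANKRD1.

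AMOTL2 encodes an angiomotin-like scaffold that can hold YAP at junctions, and AJUBA a LIM protein that inhibits LATS kinases. AMOTL2, untreated first, was at 100.3 and 107.8 CPM in WT, 108.7 and 117.8 CPM in E292V, 105.6 and 119.7 CPM in E690K, 93.1 and 84.5 CPM in the KO pair, and 99.1 and 71.7 CPM in L101P. AJUBA was at 106.0 and 141.8 CPM in WT, 117.5 and 157.5 CPM in E292V, 112.7 and 118.3 CPM in E690K, 96.1 and 103.8 CPM in the KO pair, and 103.6 and 91.1 CPM in L101P. Both genes had the line order of CYR61 at its lower end, with KO and L101P overlapping each other and lying below the other 3 lines. LATS2 ranged from 29.3 to 36.0 CPM with a median of 33.1, YAP1 from 94.9 to 112.0 with a median of 104.0, and WWTR1 from 120.1 to 165.7 with a median of 141.1. TEAD1 ranged from 187.7 to 231.0 CPM with a median of 212.3, and TEAD4 from 53.9 to 65.6 with a median of 58.9. An antisense gene overlaps the exons of CTGF (12 counts at most) and of WWTR1 (113 counts at most), and strand use in counting is not stated, so their reads cannot be fully separated. For TEAD4 each line overlapped the next in order of level, so that no line stood apart.

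Whether a gene differed among the 5 lines was asked first, in 1 fit of line and vector to the 10 libraries with edgeR's quasi-likelihood test and Benjamini-Hochberg adjustment over all 17978 genes. ANKRD1 (adjusted p 0.000685), CTGF (0.00277) and CYR61 (0.0244) passed at 0.05, which is 3 of the 10 genes against 13.0% of all genes tested. AJUBA (0.0803) and AMOTL2 (0.0961) did not pass with edgeR. Both passed with DESeq2 (0.00944 and 0.0130), which called 3418 of 17978 genes where edgeR called 2337. In all, AJUBA passed under 7 and AMOTL2 under 5 of 22 other settings and omissions. WWTR1 (0.214), YAP1 (0.272), LATS2 (0.359), TEAD1 (0.431) and TEAD4 (0.762) did not pass with edgeR either. WWTR1 passed under 2 of 22 other settings and omissions, and YAP1, LATS2, TEAD1 and TEAD4 under 0 of 22. ANKRD1 passed under all 22 other settings and omissions tried, with adjusted p up to 0.0116. CTGF passed under 21 of 22 and lost the call without the KO pair (0.0599). CYR61 passed under 16 of 22 and lost it without the KO (0.0614), E292V (0.0822) or E690K pair (0.0655), and without the KO transduced (0.0575), E690K untreated (0.0629) or E690K transduced library (0.0690).

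Against WT, the line labelled KO was lower for 2 of the 10 genes, ANKRD1 and CTGF, and higher for none. Of all genes tested, 0.990% were lower, 0.807% higher and 1.80% changed in either direction. The other target genes had values below 0 that did not pass: -0.34 for CYR61, -0.27 for AJUBA and -0.20 for AMOTL2. CYR61 and AJUBA each passed under 2 of 20 other settings and omissions. ANKRD1 was 4.25-fold lower (log2 fold change -2.09, SE 0.33, edgeR adjusted p 0.0077) and CTGF 1.69-fold lower (-0.76, SE 0.12, edgeR adjusted p 0.00954). Both were lower in the untreated pair (-1.70 and -0.72) and in the transduced pair (-2.46 and -0.81). With the KO labels exchanged ANKRD1 had an adjusted p of 0.0544, and without the KO transduced library both genes had 0.175. CTGF lost the call without the WT transduced (0.0747) or the KO untreated library (0.0541).

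In L101P against WT, 1 of the 10 genes was lower, where 1.61% of all genes were lower, 2.33% higher and 3.94% changed. ANKRD1 was 3-fold lower (log2 fold change -1.59, SE 0.32, edgeR adjusted p 0.0175), with -1.55 between the untreated and -1.63 between the transduced libraries. The other target genes had values below 0 that did not pass: -0.42 for CYR61, -0.37 for CTGF, -0.29 for AJUBA and -0.25 for AMOTL2. With no filter on low counts CYR61 (adjusted p 0.0104), CTGF (0.0307) and AJUBA (0.0437) passed with edgeR. Over all genes that setting called 1437 of 24252, in place of 709 of 17978. The fold changes moved with the transduced library of the line. Without the L101P untreated library, the log2 fold changes were -0.76 for CYR61, -0.54 for CTGF, -0.51 for AMOTL2 and -0.50 for AJUBA. Between the untreated libraries alone CYR61 was at -0.07 and CTGF at -0.22 against WT on the log2 scale. Of the 7 epithelial markers, KRT8 (7719 CPM), KRT18 (3239 CPM), KRT19 (459 CPM) and CLDN4 (13.4 CPM) were highest in the L101P transduced library. KRT7 was highest in E690K transduced (3330 CPM), EPCAM in the library labelled KO transduced (22.2 CPM) and CDH1 in E292V untreated (36.4 CPM). The sum of the 7 was largest in the L101P transduced library (14766 CPM, against 8037 to 11440 in the other 9 libraries). The part of that library's composition in these results was not tested.

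In E690K against WT, 1 of the 10 genes was lower, where 2.33% of all genes were lower, 3.05% higher and 5.38% changed. ANKRD1 was 3.05-fold lower (log2 fold change -1.61, SE 0.32, edgeR adjusted p 0.0127), with -1.06 between the untreated and -2.24 between the transduced libraries. CTGF (-0.35, SE 0.12, edgeR adjusted p 0.131) did not pass, though it did under 4 of 20 other settings and omissions. Among these was no filter on low counts (0.0399), where 1659 of 24252 genes passed in place of 967 of 17978. CYR61 was at 0.15 (SE 0.16, adjusted p 0.706). YAP1 in E690K was at 0.21 (SE 0.07, edgeR adjusted p 0.133) and passed under 2 of 20 other settings and omissions. In E292V against WT none of the 10 genes passed, where 1.05% of all genes did (0.295% higher and 0.756% lower). By unadjusted p none was under 0.05, and DESeq2 called none of the 10. ANKRD1 was at 0.31 (SE 0.30), CYR61 at 0.35 (SE 0.16) and CTGF at 0.12 (SE 0.12). The 4 line contrasts share the WT libraries, so a common direction in several of them is not independent. The ANKRD1 calls against WT were lost when the vector term was left out (KO adjusted p 0.0759, L101P 0.126, E690K 0.0807), with the KO labels exchanged (L101P 0.0707, E690K 0.0543) and without the WT transduced library (L101P 0.108, E690K 0.0544). The E690K call was also lost without the E690K transduced library (0.181), where the log2 fold change was -1.06.

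**Figure D2:**
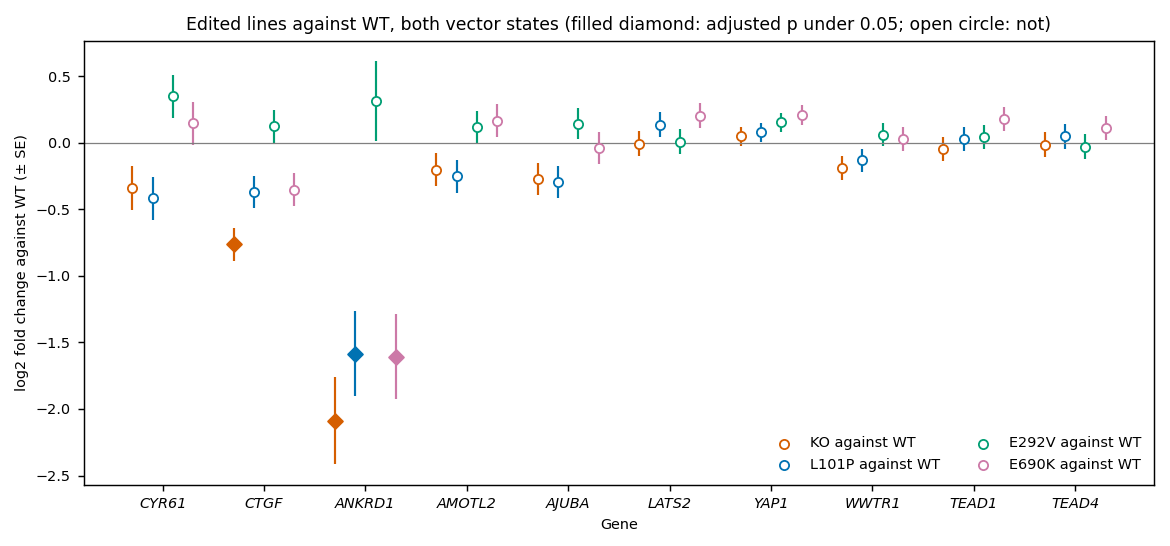
Log2 fold change (vertical axis, ± SE) of each gene (horizontal axis) in the 4 edited lines against WT over both vector states, from the fit to 10 libraries. Filled diamonds passed an adjusted p of 0.05 and open circles did not: ANKRD1 in KO, L101P and E690K and CTGF in KO are filled, and the 5 genes from LATS2 to TEAD4 lie between -0.19 and 0.21.

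The series title separates type 1 and type 2 variants, and a contrast of L101P with the average of the E292V and E690K lines bears on that division with 1 line on one side and 2 on the other. CYR61 was 1.59-fold lower in L101P (log2 fold change -0.66, SE 0.15, edgeR adjusted p 0.0198), the 1 gene of 10 that passed, where 2.04% of all genes were lower, 3.75% higher and 5.79% changed. AMOTL2 (-0.39, SE 0.11, edgeR adjusted p 0.0542), AJUBA (-0.34, SE 0.10, 0.0791), ANKRD1 (-0.94, SE 0.29, 0.0807) and CTGF (-0.25, SE 0.11, 0.221) lay below 0 and did not pass. AMOTL2 and AJUBA passed under 6 each, ANKRD1 under 4 and CTGF under 3 of 21 other settings and omissions. With DESeq2 AMOTL2 (0.00749) and AJUBA (0.0204) did pass, where it called 1470 of 17978 genes and edgeR 1041. Without the L101P untreated library the log2 fold changes were -0.65 for AMOTL2, -0.56 for AJUBA and -0.43 for CTGF. The CYR61 call was lost without the L101P transduced library (-0.36, adjusted p 0.167), the E292V pair (0.119), or the E690K untreated (0.0550) or transduced library (0.0842). For ANKRD1 the 2 lines on the E292V and E690K side differed from each other: E690K lay at 3.46 to 3.49 CPM and E292V at 7.18 to 25.2 CPM.

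The vector effect was estimated over the 5 line pairs. None of the 17978 genes passed with edgeR (0%), and 1236 had an unadjusted p under 0.05, while DESeq2 called 113. The estimate for ANKRD1 was 0.95 on the log2 scale (SE 0.21, adjusted p 0.198 with edgeR), and it was higher in the transduced library in 4 of 5 lines. In E690K the pair differed by 0.01 on the log2 scale after TMM scaling, with the opposite sign in CPM (3.49 and 3.46). AJUBA was at 0.19 (SE 0.08, adjusted p 0.618), CTGF at 0.14 (SE 0.08, 0.817) and CYR61 at 0.12 (SE 0.10, 0.909). The remaining 6 genes lay between -0.03 and 0.09. ANKRD1 passed without the L101P pair (adjusted p 0.0316), without either L101P library (0.00762 and 0.00780) and without either E690K library (0.0477 and 0.0484). AJUBA passed without the L101P pair (0.0349) and without either L101P library (0.0170 and 0.0166). ANKRD1 also passed with no filter on low counts (1.01e-06). Over all genes 133 of 17731 passed without the L101P pair and 237 of 24252 with no filter.

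Within single lines, ANKRD1 in the transduced library was 3.56 times the untreated level in E292V (95% counting interval 3.12 to 4.06), 2.29 times in WT (2.00 to 2.62) and 2.16 times in L101P (1.66 to 2.83). It was 1.35 times in the pair labelled KO (1.02 to 1.81) and 1.00 times in E690K (0.78 to 1.29). ANKRD1 was the only one of the 10 genes past 1.5-fold in any pair, and was past it in WT, L101P and E292V, where 7.23%, 9.20% and 7.62% of all genes were more than 1.5-fold higher. In the KO and E690K pairs none of the 10 was past 1.5-fold, where 6.14% and 7.00% of genes were higher by that much. None of the 10 was lower by that much in any pair, where 6.91% (WT), 7.82% (KO), 9.41% (L101P), 7.85% (E292V) and 7.09% (E690K) of genes were. For CYR61 the transduced level was 1.42 times the untreated in E292V and 1.25 times in WT (1.18 to 1.33), and in L101P the transduced level was 0.75 of the untreated (0.70 to 0.81). AMOTL2 was also at 0.75 in L101P (0.71 to 0.79). After TMM scaling of the library totals, the median log2 change over all genes lay between -0.0019 (KO) and 0.0057 (L101P) in every line. The number of the 10 genes higher after transduction, with that scaling, was 10 in E690K, 9 in WT, 8 in E292V, 7 in the KO pair and 2 in L101P. In CPM without that scaling it was 8 in E690K and 1 in L101P, because ANKRD1 and YAP1 in E690K and LATS2 in L101P, all within 0.05 on the log2 scale, changed sign. With 1 library on each side these pairs have no replicate check. An interaction test of the vector effect, WT against the 4 edited lines, called no gene with edgeR (0%, with 597 at an unadjusted p under 0.05) nor with DESeq2. The WT difference was 0.31 (SE 0.50, adjusted p 0.986) for ANKRD1.

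**Figure D3:**
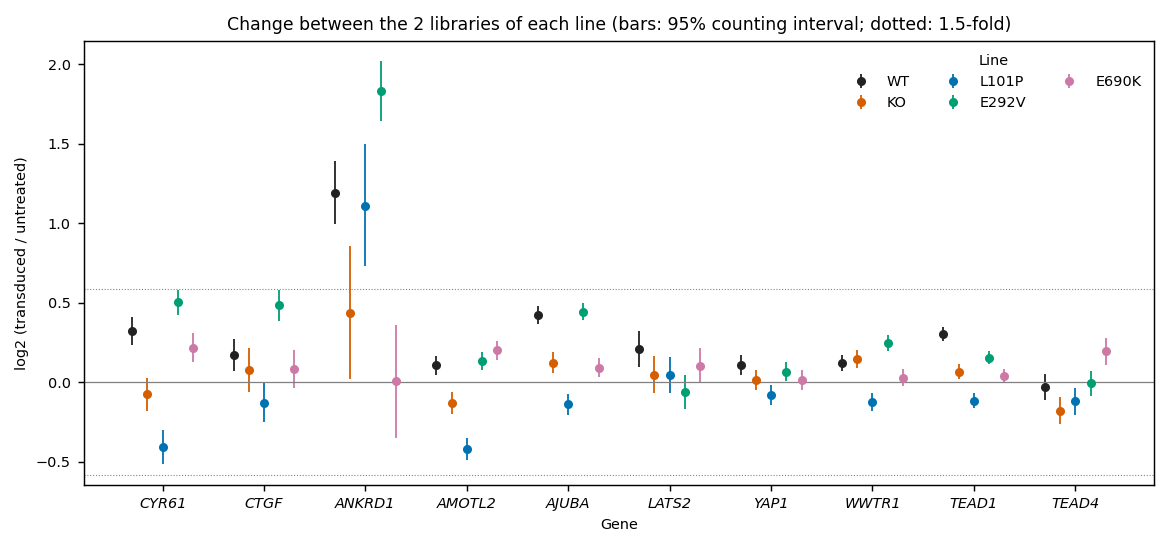
Log2 ratio of the transduced to the untreated level (vertical axis) of each gene (horizontal axis) in the 5 lines, with 95% counting intervals as bars and 1.5-fold as dotted lines. ANKRD1 in E292V (1.83), WT (1.19) and L101P (1.11) lies above the upper dotted line, and CYR61 and AMOTL2 in L101P lie lowest, at -0.41 and -0.42.

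Of 28 other Hippo pathway components, among them the kinases, their scaffolds and further TEAD genes, 27 were tested and 6 differed among the lines (WWC1, PTPN14, LIMD1, WTIP, FAT4, TEAD2), against 13.0% of all genes. FAT4, an atypical cadherin upstream of the kinases, was at 6.68 and 9.75 CPM in WT, 14.4 and 14.7 CPM in E292V, and 3.05 to 5.98 CPM in the 6 libraries of the other lines. It was lower than WT in E690K (log2 fold change -1.05, edgeR adjusted p 0.0191) and L101P (-0.88, 0.0482). Against WT 1 was lower in KO, 2 in L101P and 3 in E690K, where 0.990%, 1.61% and 2.33% of all genes were lower. FAT1 alone was higher in E690K, where 3.05% of all genes were, and in E292V none passed with edgeR (3 at an unadjusted p under 0.05, 1 with DESeq2). Of all 17978 genes, 1857 had an unadjusted p under 0.05 in E292V, and DESeq2 called 432. TEAD2 was at 56.2 and 51.4 CPM in WT and fell in E690K (-0.48, edgeR adjusted p 0.00662) and L101P (-0.40, 0.0241). LIMD1, a LIM protein related to AJUBA, fell in E690K (-0.34, 0.0376) and WTIP in KO (-0.44, 0.0269). The median of the list against WT was 0.01 (KO), 0.06 (L101P), 0.04 (E292V) and 0.07 (E690K), beside medians of all genes from -0.02 to 0.00. Over all genes, 2337 of 17978 differed among the lines as reported and 931 of 17568 when the E292V pair was left out. Without the E292V pair 2 of the 27 differed among the lines, and without the E690K transduced library none passed in E690K by edgeR.

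Of 17 other genes of a published YAP target signature, all tested and with PTPN14 also in the list above, 10 differed among the lines, against 13.0% of all genes. In E690K 5 were higher than WT and none lower (MYOF, AXL, FJX1, NT5E, DOCK5), where 3.05% of all genes were higher, and in L101P 4 were higher and none lower (MYOF, IGFBP3, NT5E, DOCK5), where 2.33% were higher. In E292V CCDC80 alone was higher, where 0.295% of all genes were. In KO none passed by edgeR, with 7 at an unadjusted p under 0.05 and 5 of the 17 values above 0, while DESeq2 called 4, 1 higher and 3 lower. Of all 17978 genes, 2532 had an unadjusted p under 0.05 and 8574 a value above 0 in KO. DESeq2 called 386 of them higher and 358 lower. MYOF, a membrane-repair ferlin, was at 593 and 718 CPM in WT and 993 and 1010 CPM in E690K (log2 fold change 0.67, edgeR adjusted p 0.000436). NT5E, which encodes the ectonucleotidase CD73, was at 62.5 and 79.5 CPM in WT and 150.5 and 151 CPM in E690K (1.16, 0.000487). DOCK5 rose in E690K (0.45, 0.00855) and L101P (0.34, 0.0430). CCDC80, a secreted matrix protein, was at 64.7 and 106 CPM in E292V against 41.4 and 69.1 CPM in WT (0.62, 0.0394). The median of these genes against WT was -0.05 (KO), 0.01 (L101P), 0.16 (E292V) and 0.18 (E690K). For the vector effect 16 of the 17 had a value above 0 with a median of 0.20, where 9048 of 17978 genes did with a median of 0.001. None of the 17 passed with edgeR, and 8 had an unadjusted p under 0.05, where 1236 of all genes had. DESeq2 called 4, all higher, where it called 95 of all genes higher and 18 lower. Without the E690K pair 5 of the 17 differed among the lines, where 1315 of 17783 genes did in place of 2337 of 17978. With the KO labels exchanged 1 was higher in L101P in place of 4, where 191 of 17978 genes were in place of 419.

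**Figure D4:**
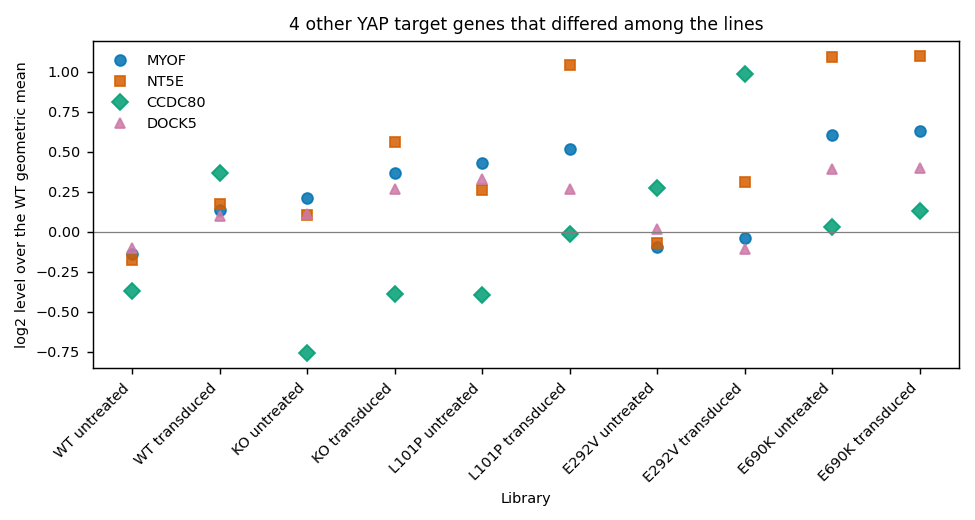
Level of 4 other YAP target genes in each library (horizontal axis), as log2 over the geometric mean of the 2 WT libraries (vertical axis). NT5E and MYOF are highest in E690K, while CCDC80 is highest in the E292V transduced library, at 106 CPM.

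Genes of neighbouring programmes were counted in the same fit, in which 13.0% of all genes differed among the lines. The shares of all genes lower than WT were 0.990% in KO, 1.61% in L101P and 2.33% in E690K, and the shares higher were 0.807%, 2.33% and 3.05% in these lines and 0.295% in E292V. Of 13 SRF and MRTF cytoskeletal genes 9 differed among the lines. Against WT 3 were lower in KO and 4 in L101P, 1 was higher in E292V, and in E690K 2 were lower (TAGLN, MYL9) and 2 higher (ACTG1, FLNA). With DESeq2 size factors 5 were higher and 2 lower in E690K, where 584 and 401 of 17978 genes were. The median of the list against WT was -0.11 (KO), -0.01 (L101P), 0.18 (E292V) and 0.18 (E690K). TAGLN, an actin-binding protein, was at 18.0 and 22.5 CPM in E292V, 5.22 and 8.01 CPM in WT and 2.23 to 3.48 CPM in the other 6 libraries. It rose in E292V (log2 fold change 1.62, edgeR adjusted p 0.00717) and fell in KO (-1.26, 0.0139), L101P (-1.29, 0.00882) and E690K (-0.87, 0.0359). The myosin light chain gene MYL9 fell in KO (-3.22, 0.000195), L101P (-2.60, 0.000765) and E690K (-1.77, 0.00179). TPM1 fell in KO (-0.75, 0.0498) and L101P (-0.91, 0.0142). Of 10 TGF-beta target genes 7 differed, with 4 higher and 1 lower in E690K. PMEPA1 rose in KO (0.42, 0.0336), L101P (0.68, 0.0018) and E690K (1.00, 8.49e-05). Of 15 immediate early genes 9 differed among the lines, and 6 were higher in E690K than in WT and none lower. FOSL1 was at 43.2 and 50.5 CPM in WT and 101.2 and 112 CPM in E690K (1.24, 1.75e-05), and EGR1, at 1.35 to 8.33 CPM, rose in KO (2.15, 0.00204), L101P (1.62, 0.00541) and E690K (2.39, 0.00028). In L101P 2 of these genes were higher and 1 lower: DUSP1, a phosphatase of MAP kinases, was at 35.3 and 36.1 CPM there against 57.4 and 56.2 CPM in WT (-0.63, edgeR adjusted p 0.00413). Of 12 proliferation genes 5 differed, and those that passed against WT were all higher: RRM2 in KO (0.42), L101P (0.65) and E690K (0.70), MKI67 and TOP2A in L101P and E690K, and BUB1 in E690K. These counts were lower without the E690K pair, at 4 SRF and MRTF, 2 TGF-beta, 4 immediate early and 2 proliferation genes that differed among the lines. The count over all genes also fell without that pair, from 2337 of 17978 to 1315 of 17783.

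Over the 10 libraries CYR61 varied most closely with AMOTL2 and AJUBA among the 10 genes (Pearson r 0.92 with each on log2 CPM), and CTGF with ANKRD1 (0.90). AJUBA and WWTR1 had r of 0.93 and YAP1 and TEAD1 0.83, while CYR61 and CTGF had 0.75. LATS2 had r from -0.25 to 0.14 and TEAD4 from -0.39 to 0.43 with the 5 target genes. The libraries come in pairs of 1 line, so these values describe 10 points that are not independent. Among 10680 genes of at least 5 CPM on average, those most like CYR61 were MYC (0.98), KIRREL1 (0.98), DYNC2H1 (0.98), DDX17 (0.98) and ADAM19 (0.96), and all 5 shared its lowest library, L101P transduced, and its highest, E292V transduced. Those most like CTGF were S1PR3 (0.97), DBN1 (0.95), MEX3B (0.95), RFTN1 (0.95) and DNAJB6 (0.95), all highest in the E292V transduced library and lowest in one of the KO libraries.

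**Figure D5:**
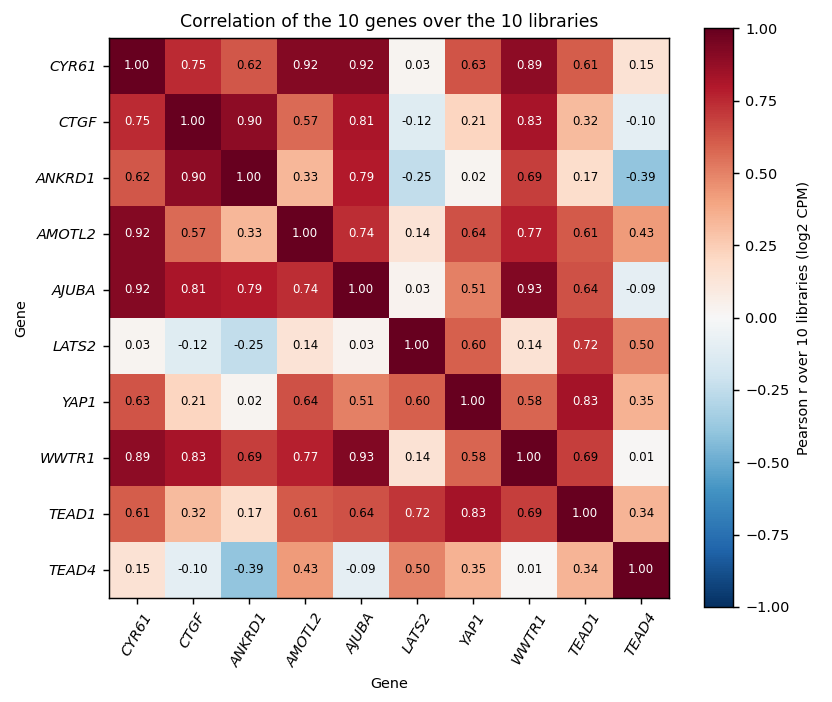
Pearson r between each pair of the 10 genes over the 10 libraries, on log2 CPM (colour scale from -1 to 1, each value printed). CYR61 had r of 0.92 with AMOTL2 and with AJUBA and CTGF had 0.90 with ANKRD1, AJUBA had 0.81 with CTGF and 0.79 with ANKRD1, and TEAD4 lies between -0.39 and 0.43 with the target genes.

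Of markers for other cell types at 1 CPM or more throughout, COL1A1 was highest in E292V transduced, as CTGF and ANKRD1 were. LUM was highest in E690K transduced (3.94 CPM) and CD68 in L101P transduced (42.9 CPM). The fibroblast list summed to 78.2 and 121 CPM in E292V, 29.03 and 47.8 CPM in WT and 16.1 to 34.7 CPM in the other 6 libraries, nearly all of it COL1A1, which ranged from 13.8 CPM (L101P transduced) to 118 CPM (E292V transduced). The other defining fibroblast genes were near 0: COL1A2 had 0 to 22 counts, DCN 0 to 18 and PDGFRA 0 to 57, and 2 of the 7 genes (COL1A1, LUM) reached 1 CPM in every library. The 4 endothelial genes summed to at most 1.08 CPM, and of the haematopoietic genes CD68 (20.7 to 42.9 CPM) was the only one above 1 CPM. Whether a few cells of another type took part in the levels of CTGF and ANKRD1 was not tested.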

How the data were processed

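RNA was sequenced from 10 A549 libraries, 1 for each of 5 lines untreated and transduced. The authors deposited raw counts per gene for 33551 rows, and the submitters' processing notes name Subread, featureCounts, edgeR, limma and GRCh38 without versions. Strand use is not given in the sources used here. Of the counts from 1 to 10, 81.4% were even, against 51.5% of those above 1000, the form of a table in which both mates of a pair are counted, so 95% Wilson intervals use the count divided by 2. Reads carry no molecular identifiers, so intervals cover counting error only. Nothing in the labels says that the libraries of a line came from separate cultures. In the main fit the error is how far these libraries depart from the sum of a line effect and a vector effect. A vector response that differs between lines enters that error, and no spread between replicate cultures is measured.

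Counts were tested with edgeR 4.0.16 in R 4.3.3 (filterByExpr, 17978 genes; TMM factors 0.972 to 1.03; quasi-likelihood test; Benjamini-Hochberg over all genes; threshold 0.05). The fit had line and vector as terms and 4 residual degrees of freedom, and the SE was the log2 fold change over the square root of F. The common dispersion gave a coefficient of variation of 12.9%. Line is the block, because libraries are paired by cell line. The 2 libraries of a line deviated together from the means of their vector state in 5 of 5 lines (r 0.18 to 0.44 over 17978 genes). An untreated and a transduced library of different lines had r from -0.30 to 0.20. WT with E292V had 0.18 and 0.20, near the same-line values of L101P (0.18) and WT (0.20). The script was tested on simulated data.

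The members and gene lists were chosen with earlier results of these data known. The 10 genes and ABCA3 were always named, of each list at most 4 genes with the lowest p in the test of the lines (other called genes are named without values), and for CYR61 and CTGF the 5 most alike genes of at least 5 CPM on average. Alternatives were DESeq2 1.42.0, its size factors, no filter or a minimum of 10 counts, halved counts, KO labels exchanged, no vector term, no block, each line pair left out and, added after the data were seen, each library left out. Gene positions and exon lengths are from GENCODE release 29 on GRCh38, which matched 98.7% of row names, and promoter sequences from RefSeq on GRCh38.p14.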

Additional observations from a re-analysis of the deposited data

How the results depend on the processing

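Calls of the 10 genes that were lost, and some of those gained, are given beside each result. Counts of genes past an adjusted p of 0.05 over all genes were, as reported, 0 for the vector effect, 2337 for the lines, 323 for KO, 709 for L101P, 189 for E292V, 967 for E690K, 1041 for L101P against E292V and E690K, 0 for the interaction. With no filter on low counts they were 237 for the vector effect, 3661 for the lines, 982 for KO, 1437 for L101P, 662 for E292V, 1659 for E690K, 1707 for L101P against E292V and E690K, 9 for the interaction. With DESeq2 they were 113 for the vector effect, 3418 for the lines, 744 for KO and 1236 for L101P. They were, also with DESeq2, 432 for E292V, 1464 for E690K, 1470 for L101P against E292V and E690K, 0 for the interaction. With the KO labels exchanged they were 142 for KO, 367 for L101P, 105 for E292V, 599 for E690K. With no vector term they were 165 for KO. Leaving out each line pair or single library in turn gave counts of 0 to 206 for the vector effect, 931 to 4555 for the lines, 25 to 1226 for KO, 180 to 1967 for L101P, 13 to 810 for E292V, 169 to 2147 for E690K, 136 to 2647 for L101P against E292V and E690K, 0 to 6 for the interaction. Where 1 library of a line was left, it is assumed to vary like the other lines. Omitting the L101P libraries raised the counts for the vector effect, the lines, KO, E292V and E690K. Without a replicate block for line, the vector effect called 0 genes, and ANKRD1 was at 1.24 (adjusted p 1). Of 1450 values of the 10 genes under alternatives, 1322 kept their direction and their side of the threshold. No called result changed direction. The 44 that did were all uncalled in the alternative too: AMOTL2 in the vector effect was 0.032 with KO labels exchanged, AMOTL2 in the vector effect was 0.0012 with no replicate block, TEAD4 in the vector effect was 0.044 with KO labels exchanged, LATS2 in KO was 0.0029 with counts halved. Across omissions of a pair or library, the log2 fold changes that crossed 0 ranged for the vector effect from -0.076 to 0.083 in AMOTL2, from -0.084 to 0.013 in TEAD4. They ranged for KO from -0.091 to 0.096 in LATS2, from -0.0054 to 0.11 in YAP1, from -0.18 to 0.10 in TEAD1, from -0.11 to 0.077 in TEAD4. They ranged for L101P from -0.10 to 0.17 in TEAD1, from -0.011 to 0.10 in TEAD4. They ranged for E292V from -0.11 to 0.33 in CTGF, from -0.34 to 0.79 in ANKRD1, from -0.025 to 0.30 in AJUBA, from -0.077 to 0.10 in LATS2, from -0.044 to 0.16 in WWTR1, from -0.085 to 0.19 in TEAD1. They ranged for E690K from -0.18 to 0.12 in AJUBA, from -0.0087 to 0.067 in WWTR1, from -0.029 to 0.24 in TEAD4. They ranged for L101P against E292V and E690K from -1.88 to 0.058 in ANKRD1, from -0.069 to 0.13 in LATS2, from -0.22 to 0.039 in TEAD1, from -0.065 to 0.080 in TEAD4. Halved counts, DESeq2 size factors and a minimum of 10 counts in every library changed no call of the 10 genes. The cause of these changes was not tested. Depth limits ANKRD1 most: its interval reached 22.8% of the level to either side, against at most 6.87% for the other 9 genes.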
